A study of Mus musculus with 15 samples.

Results

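The genes described here are 10 genes of MHC class I antigen presentation: B2m, H2-K1, H2-D1, H2-T23, Tap1, Tap2, Tapbp, Tapbpl, Nlrc5 and Erap1. They were taken by symbol from the 17493 genes counted in each of 15 RNA libraries of mouse CD8+ T cells. All 10 were among the 10831 genes that passed the filter on low counts. The cells were CD8+ T lymphocytes from spleen and lymph nodes of female OT-1 mice, strain C57BL/6-Tg(TcraTcrb)1100Mjb/Crl from Charles River. All groups share this transgene, which gives the T cells a single receptor for an ovalbumin peptide held by H2-Kb, the product of H2-K1. The animals' age was not given in the sources used here.

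There were 5 groups of 3 libraries. Unstimulated cells were taken at 0 h. Cells of the IF groups were cultured for 8 h or 22 h with 5 ng/ml of IF-pMHC(SIIT)/IL-2, immunofilaments that display MHC loaded with the peptide SIITFEKL together with interleukin-2. Cells of the DC groups were cultured for the same times with 20000 dendritic cells, raised with Flt-3Ligand and pulsed with SIITFEKL, for 50000 T cells in a well. Viable CD8+ CD103- cells were sorted before RNA extraction. The controls were not cultured, so time in culture and stimulation cannot be told apart against them. Labels name interleukin-2 for the filaments only, so display of the peptide and the cytokine cannot be told apart between IF and DC either.

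MHC class I molecules show short peptides from inside the cell to CD8+ T cells. Each consists of a heavy chain, such as the products of H2-K1, H2-D1 and H2-T23, and the light chain beta-2 microglobulin, from B2m. Proteasomes cut the peptides, the TAP1 and TAP2 transporter pumps them into the endoplasmic reticulum, ERAP1 trims them, and tapasin (Tapbp) and its relative TAPBPR (Tapbpl) help to load and select them. NLRC5 is a transactivator that has no DNA-binding domain of its own and acts at class I promoters through a complex of RFX, CREB/ATF and NF-Y proteins bound to the X and Y boxes. T cells themselves carry class I molecules, and interferons raise the transcription of most of these genes.

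Promoters are shown first because the genes with the highest counts, B2m, H2-K1 and H2-D1, share a layout there that Tap1 lacks. Each sequence is the 200 bases before the annotated start of transcription, 5′ to 3′ on the gene's strand, from RefSeq with build GRCm38.p6. Capitals mark matches, on either strand, to AANNGAAA (the core bound by interferon regulatory factors), TGACG (the CREB/ATF core of the X2 box), CCAAT (the Y box bound by NF-Y) and the kappaB consensus. H2-K1 lies at chr17:34000348-34000547 on the minus strand, H2-D1 at chr17:35262894-35263093 on the plus strand, B2m at chr2:122147487-122147686 on the plus strand and Tap1 at chr17:34187356-34187555 on the plus strand.
H2-K1: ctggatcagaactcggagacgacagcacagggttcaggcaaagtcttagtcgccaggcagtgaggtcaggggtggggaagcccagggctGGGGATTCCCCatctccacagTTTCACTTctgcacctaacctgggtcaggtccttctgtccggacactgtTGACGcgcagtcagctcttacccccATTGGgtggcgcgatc
H2-D1: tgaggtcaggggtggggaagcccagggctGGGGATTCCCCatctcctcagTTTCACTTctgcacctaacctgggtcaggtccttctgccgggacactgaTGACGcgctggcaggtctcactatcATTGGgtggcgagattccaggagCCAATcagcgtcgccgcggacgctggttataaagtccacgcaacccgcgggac
B2m: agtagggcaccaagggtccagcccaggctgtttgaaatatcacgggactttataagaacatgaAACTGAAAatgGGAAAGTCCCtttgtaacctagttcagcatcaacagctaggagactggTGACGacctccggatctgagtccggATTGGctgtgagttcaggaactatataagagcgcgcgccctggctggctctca
Tap1: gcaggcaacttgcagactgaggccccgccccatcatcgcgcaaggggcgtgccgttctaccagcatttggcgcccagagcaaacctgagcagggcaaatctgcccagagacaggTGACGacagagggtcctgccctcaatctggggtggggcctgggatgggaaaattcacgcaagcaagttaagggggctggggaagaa

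In H2-K1, H2-D1 and B2m the CREB/ATF core and an inverted Y box stood in the same order with exactly 20 bases between them. The pair began 41 bases before the start shown in H2-K1 (55 before a second annotated start), 101 before it in H2-D1 and 78 before it in B2m. With 15 to 25 bases allowed between, this pair occurred in 125 of 32851 promoters searched over 250 bases, or 0.381%, and in 2 of the 12 other class I genes that have an entry. The same 3 genes held a kappaB match, found in 3.9% of all promoters, and an interferon regulatory factor core, found in 21.3%. H2-T23 held 2 of the interferon regulatory factor cores and a Y box. Single CREB/ATF cores (17.8% of promoters) and Y boxes (33.8%) are common, and Tap1 held 1 of each without the pair, its Y box lying in the 50 bases before the stretch printed here. Tapbp held 2 Y boxes, and the Erap1 window held none of these letters. Tap2, Tapbpl and Nlrc5 are named only. A match describes letters in this window; it does not show binding, and no match says nothing of the factor.

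**Figure D1:**
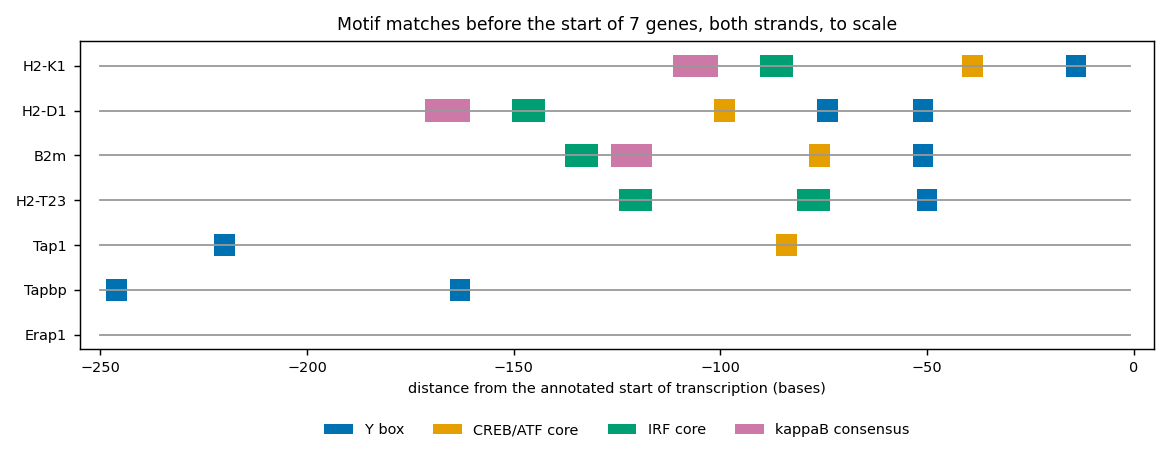
Motif matches in the 250 bases before the annotated start of 7 of the genes; the horizontal axis is the distance from the start in bases and each coloured block is 1 match on either strand, to scale. H2-K1, H2-D1 and B2m each show a CREB/ATF core followed by a Y box with 20 bases between, and Erap1 shows no match.

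Most of the genes lie in the MHC region of chromosome 17. In GENCODE vM21, which uses the build named in the submitters' notes (mm10, the same assembly as GRCm38), Tapbp spans chr17:33915899-33929292, H2-K1 chr17:33996017-34000347, Tap1 chr17:34187553-34197225, Tap2 chr17:34203527-34216321, H2-D1 chr17:35262730-35267499 and H2-T23 chr17:36029773-36032855. B2m spans chr2:122147686-122153083, Tapbpl chr6:125223933-125231860, Nlrc5 chr8:94434356-94527272 and Erap1 chr13:74639568-74693201. Exons of 5 of them overlap those of another gene. Tap1 shares 212 exonic bases with Psmb9 and Erap1 shares 834 with Cast, in both cases on the opposite strand, and Tapbp shares 149 with Zbtb22 on the same strand. Tapbp also shares 904 with the antisense gene Gm19412, and Tap2 and Nlrc5 share bases with noncoding genes on the opposite strand. Whether counting used strand was not given, so reads of these partners cannot be told apart from their own.

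Total counts ran from 2892874 to 19806730 per library. Summed counts of the 10 genes made up 0.768% to 1.26% of each library. All 10 markers of CD8+ T cells were present in every group, and their summed level was 10990 to 11890 normalised read counts (CPM) in unstimulated cells and 5036 to 7752 in stimulated cells. Of these 10, 7 were lower than in unstimulated cells with IF at 8 h and 6 at 22 h, and with DC 9 and 7, and none was higher. Thy1, a surface marker of T cells, was lower in all 4, by -0.87 (IF 22 h) to -1.51 (IF 8 h). IF 22 h replicates 2 and 3 stood apart: mitochondrial ribosomal RNA took 0.179% and 0.146% of their counts, against 1.83% to 4.49% in the other 13 libraries. Calls that involve IF 22 h, and values that move by over 1.5 times, are therefore also given from a fit without both, which leaves 1 library in that group and assumes that it varies as the other groups do. The dendritic cell list, 25 genes, summed to 1297 to 1608 CPM at DC 8 h and 761 to 1003 at DC 22 h. In IF cells it summed to 487 to 765 at 8 h and 589 to 856 at 22 h, and in unstimulated cells to 1030 to 1899. T cells also express some of its genes, such as Ccr7. Against unstimulated cells, 4 of its 21 tested genes were higher and 0 lower in DC cells at 8 h, and 4 were higher and 5 lower at 22 h. In IF cells 1 was higher and 5 lower at 8 h, and 2 were higher and 4 lower at 22 h. Between IF and DC at 8 h, 0 were higher and 6 lower in IF cells, where 0.665% of all genes passed in either direction. The median was -1.89, beside -0.01 over all genes. All IF libraries lay below all DC ones for 15 of 21, with no share over all genes given at 8 h. At 22 h, 1 was higher and 3 lower, where 2.43% of all genes passed, with a median of -0.34 beside -0.02. All IF libraries then lay below all DC ones for 6 of 21, and for 9.11% of all genes. Over all genes tested against unstimulated cells, 6.82% and 7.76% passed with DC at 8 h and 22 h, and 7.76% and 6.08% with IF, in either direction. Zbtb46, a defining dendritic cell factor, had 0 counts in all unstimulated and IF 8 h libraries, and measured 1.77 CPM at DC 8 h. At 22 h it measured 0.295 with IF and 0.565 with DC. Fscn1, a marker of mature dendritic cells, measured 2.31 CPM in unstimulated cells. With IF it measured 0.489 at 8 h and 23.7 at 22 h, and with DC 142 and 85.1. Both were picked from the list with its values known. The B cell list (12 genes, 5 tested) summed to 20.1 to 21.5 CPM in unstimulated cells. With IF it summed to 9.46 to 39.1 at 8 h and 23.3 to 43.1 at 22 h, and with DC to 4.47 to 11.9 and 7.30 to 16.8. Between IF and DC at 22 h its median difference was 2.12, beside -0.02 over all genes, 4 of 5 were positive and 0 passed. All IF libraries lay above all DC ones for 3 of 5, with no share over all genes given for that direction. Dendritic cells and B cells carry class I genes too; the part of such RNA in the values below was not tested.

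Differences across the 5 groups were found in 6 of the 10 genes: B2m, H2-K1, H2-D1, Tap1, Tapbp and Nlrc5 (edgeR quasi-likelihood F-test, adjusted p from 0.00717 to 0.041). Over all genes tested, 11.8% passed. H2-T23, Tap2, Tapbpl and Erap1 did not pass (adjusted p 0.19, 0.313, 0.179 and 0.817). IF 22 h had the lowest mean in all 10. Only B2m and H2-K1 passed without the IF 22 h libraries 2 and 3. Levels below are CPM on TMM-scaled totals, given for replicates 1, 2 and 3 in that order. These are shares of a library's RNA, so a lower level can mean less RNA of the gene or more RNA of others, and fewer cells with the gene cannot be told apart from less RNA per cell.

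**Figure D2:**
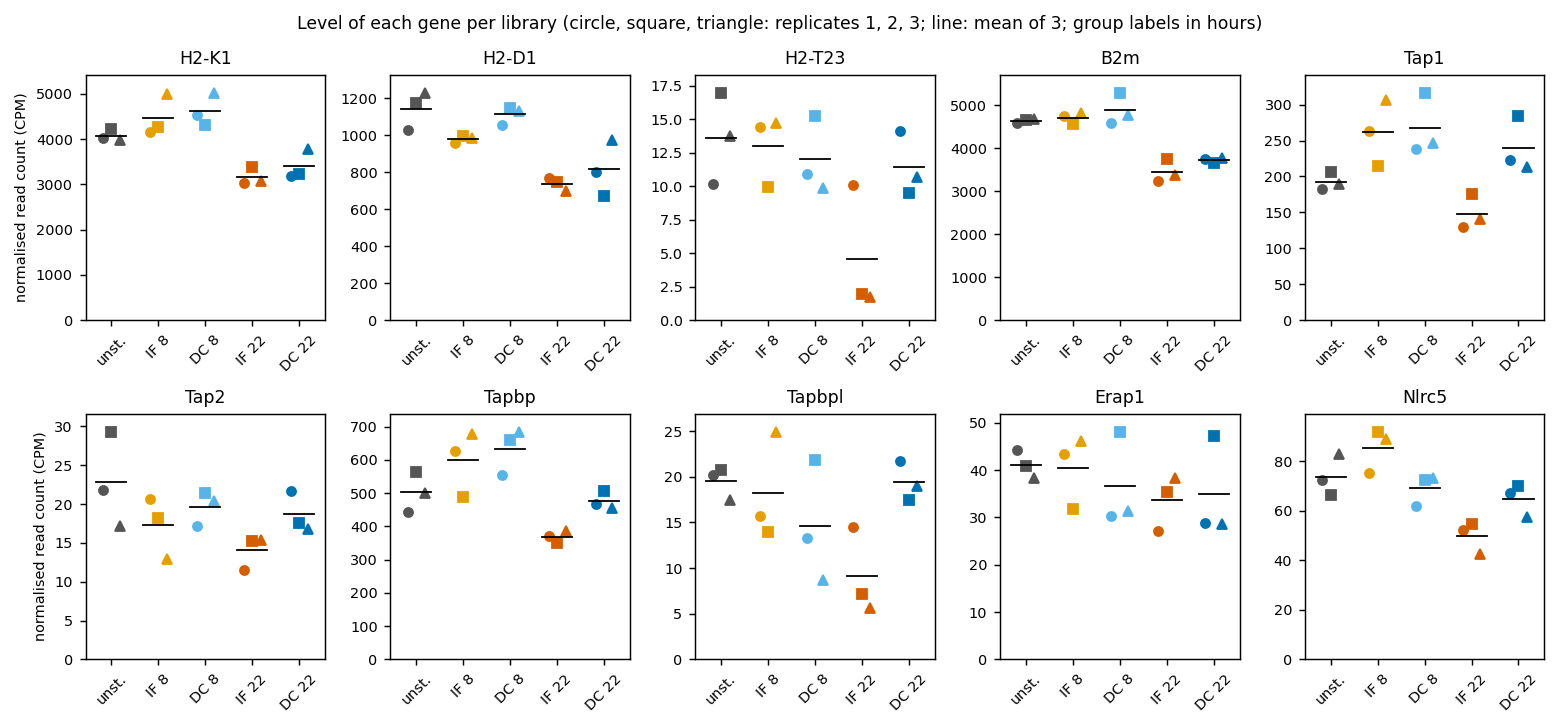
Level of each gene in CPM (vertical axes, linear from 0) in the 15 libraries, with 3 points per group for replicates 1 to 3 and a line at their mean. B2m, H2-K1, H2-D1, Tap1, Tapbp and Nlrc5 at IF 22 h lie below all IF 8 h libraries, and H2-T23 and Tapbpl are split among the IF 22 h libraries.

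The light chain gene did not pass between unstimulated and 8 h cells and was lower at IF 22 h. B2m measured 4572, 4647 and 4680 CPM in unstimulated cells. At 8 h it measured 4743, 4548 and 4824 with IF and 4590, 5286 and 4768 with DC. At 22 h it measured 3238, 3741 and 3370 with IF and 3745, 3654 and 3761 with DC. Every 22 h library was below every earlier library. Against unstimulated cells B2m fell by 0.43 ± 0.10 (log2, SE) at IF 22 h (adjusted p = 0.0204), and against IF 8 h by 0.45 ± 0.10 (adjusted p = 0.0442). At DC 22 h the difference from unstimulated cells was -0.32 ± 0.10 (adjusted p = 0.0686), and with libraries scaled by total count alone it was 0.01; that scaling gave -0.22 at IF 22 h (adjusted p = 0.147). Without the IF 22 h libraries 2 and 3 the IF 22 h difference was -0.52 (adjusted p = 0.109), and leaving out IF 22 h replicate 3, any unstimulated library or the low-count filter (adjusted p = 0.139) also ended that call.

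H2-K1 encodes the heavy chain that presents the peptide used here. Its levels were 4028, 4225 and 3983 CPM in unstimulated cells. At 8 h they were 4149, 4275 and 5007 with IF and 4530, 4314 and 5026 with DC. At 22 h they were 3027, 3382 and 3066 with IF and 3193, 3239 and 3788 with DC. As for B2m, every 22 h library was below every earlier one. From IF 8 h to IF 22 h H2-K1 fell by 0.50 ± 0.12 (adjusted p = 0.0465). The change of H2-K1 from DC 8 h to DC 22 h was close to that with IF, -0.44 ± 0.12, with an adjusted p of 0.137. Fitted on the DC libraries alone without pairs it had an adjusted p of 0.418, and 0 of all genes passed. With replicate numbers as pairs it was -0.45 (adjusted p = 0.0331), and 166 of all genes passed. The pairing was taken from these same data and not from the labels, so this call depends on it. The shares of 60-base windows in the last 500 transcript bases that also occur in another gene were 4.69% for H2-K1 and 3.56% for H2-D1, so only part of their 3′ reads could be split with other genes.

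H2-D1, the other classical heavy chain, was the only one of the 10 past the threshold against unstimulated cells with both stimuli at 22 h. It measured 1028, 1177 and 1231 CPM in unstimulated cells. At 8 h it measured 961, 998 and 986 with IF and 1057, 1150 and 1134 with DC. At 22 h it measured 771, 746 and 700 with IF and 804, 674 and 972 with DC. All IF libraries and all DC 22 h libraries were below the unstimulated ones. The decrease at IF 22 h was -0.63 ± 0.14 (adjusted p = 0.0115) and that at DC 22 h was -0.49 ± 0.14 (adjusted p = 0.0376). Both comparisons share the unstimulated libraries. Under scaling by total count alone the values were -0.43 and -0.16 and neither passed, and without the IF 22 h libraries 2 and 3 the IF value was -0.57 (adjusted p = 0.298) and the DC value -0.48 (adjusted p = 0.0551). The DC call also ended with only the groups compared (adjusted p = 0.137) and without the low-count filter (adjusted p = 0.0907). Of the 15 fits that left out 1 library each, 12 called H2-D1 at IF 22 h, all but those without IF 22 h replicate 3 or unstimulated replicate 2 or 3. Only 4 called it at DC 22 h, those without IF 8 h replicate 2, DC 8 h replicate 2, IF 22 h replicate 1 or DC 22 h replicate 3.

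H2-T23 encodes Qa-1, a non-classical heavy chain that presents leader peptides to CD94/NKG2 receptors. It measured 10.1, 16.99 and 13.7 CPM in unstimulated cells, and all 8 h and DC 22 h libraries lay between 9.51 and 15.3. At IF 22 h it measured 10.1 in replicate 1 but 1.91 and 1.74 in replicates 2 and 3, the libraries low in mitochondrial ribosomal RNA. The difference from unstimulated cells, -1.60 ± 0.51 (adjusted p = 0.0775), was -0.42 without both. A share of 30.2% of its 3′ windows also occurs in other genes, the most of the 10, so its counts are uncertain.

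Tap1 had the widest span of group means among genes that differed across groups, 1.80-fold between DC 8 h and IF 22 h, and its libraries at 22 h lay on opposite sides of the controls with the 2 stimuli, with neither difference from them past the threshold. Unstimulated cells measured 183, 206 and 190 CPM. At 8 h the levels were 264, 215 and 307 with IF and 239, 317 and 247 with DC, all above the controls. At 22 h they were 129, 176 and 140 with IF, all below the controls, and 223, 285 and 213 with DC, all above them. Against the controls these were -0.38 ± 0.18 (adjusted p = 0.252) and 0.31 ± 0.18 (adjusted p = 0.321), and the IF value was -0.58 without the IF 22 h libraries 2 and 3. From IF 8 h to IF 22 h Tap1 fell by 0.82 ± 0.18 (adjusted p = 0.0432), the largest called change of the 10, and the value was -1.02 without both (adjusted p = 0.499). The difference of 0.44 ± 0.18 at IF 8 h and 0.47 ± 0.18 at DC 8 h did not pass (adjusted p = 0.154 and 0.139); scaling by total count alone, which moved the median of all genes to 0.26 and 0.30, gave 0.68 and 0.74, both past the threshold.

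Between IF and DC at 22 h Tap1 differed by -0.69 ± 0.18 (95% interval -1.08 to -0.31, adjusted p = 0.0549), just outside the threshold. It passed with DESeq2, with DESeq2 size factors, with total counts, without the low-count filter and with the newer edgeR method. It did not pass with only the groups compared (adjusted p = 0.186), with replicate numbers as a block (0.0535) or in 14 of 15 leave-one-out fits (up to 0.227), and the difference was -0.89 (adjusted p = 0.386) without the IF 22 h libraries 2 and 3. Tap2, which encodes the other subunit of the transporter, passed in no comparison. Its unstimulated libraries spanned 17.2 to 29.3 CPM and overlapped those of all groups but IF 22 h, which spanned 11.5 to 15.4. The IF 22 h difference was -0.70 ± 0.25 (adjusted p = 0.112), and -0.98 without both libraries.

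Tapasin, which bridges TAP and empty class I molecules, followed the order of H2-K1 and B2m. Tapbp measured 445, 563 and 501 CPM in unstimulated cells. At 8 h it measured 626, 490 and 679 with IF and 554, 661 and 684 with DC. At 22 h it measured 371, 350 and 385 with IF and 467, 506 and 456 with DC. IF 22 h libraries lay below those of every other group. Tapbp fell by 0.70 ± 0.15 from IF 8 h to IF 22 h (adjusted p = 0.0363), and the value was -0.68 without the IF 22 h libraries 2 and 3 (adjusted p = 0.698). The change from DC 8 h to DC 22 h was -0.41 ± 0.15 (adjusted p = 0.346).

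Tapbpl, whose product edits the peptides of class I molecules apart from TAP, was split at IF 22 h like H2-T23. Replicate 1 measured 14.5 CPM and replicates 2 and 3 measured 7.17 and 5.67, against 17.5 to 20.8 in unstimulated cells and 17.5 to 21.7 at DC 22 h. Its DC 8 h libraries ranged from 8.66 to 21.9 and its IF 8 h libraries from 13.9 to 24.9. The IF 22 h difference from unstimulated cells was -1.11 ± 0.37 (adjusted p = 0.0865) and -0.43 without both libraries. A share of 14.5% of its 3′ windows also occurs in other genes, so the counts of Tapbpl are uncertain too. H2-T23 and Tapbpl followed each other over the 15 libraries with Pearson r = 0.865, as a description of libraries that include this split. Both share windows with Pck2 and Dnajb14.

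Erap1, the trimming aminopeptidase, showed the least change. Its group means spanned 33.6 to 41.1 CPM, a ratio of 1.22, and its libraries ranged from 27.1 to 48.1. IF 22 h libraries reached 38.38 at most, just under the lowest unstimulated value of 38.4, and all other groups overlapped the controls. The IF 22 h difference was -0.29 (adjusted p = 0.557), and -0.60 without the IF 22 h libraries 2 and 3 (adjusted p = 0.634).

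Nlrc5 measured 72.4, 66.3 and 82.9 CPM in unstimulated cells. At 8 h it measured 75.3, 91.8 and 89.2 with IF and 61.8, 72.4 and 73.1 with DC. At 22 h it measured 52.1, 54.6 and 42.5 with IF and 67.04, 70.1 and 57.4 with DC. IF 22 h libraries were below those of every other group. From IF 8 h to IF 22 h it fell by 0.78 ± 0.17 (adjusted p = 0.0373), and the value was -0.71 without the IF 22 h libraries 2 and 3 (adjusted p = 0.761). Against unstimulated cells the IF 22 h difference was -0.57 ± 0.17 (adjusted p = 0.0538). DC libraries at both times overlapped the controls.

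By comparison, at 8 h none of the 10 passed against unstimulated cells with either stimulus in edgeR, whereas 7.76% of all genes did with IF and 6.82% with DC. Unadjusted p was under 0.05 for 1 of the 10 with IF and 2 with DC, and DESeq2 called 0 in both. Counts at unadjusted p, here and below, have no share over all genes beside them and cannot be set against shares at adjusted p. With total counts as the scale 3 were higher with IF and 4 with DC. Of all genes 849 and 859 were then higher, against 329 and 298 with TMM scaling. Of the 10 differences, 9 were positive with each stimulus on that scale, against 5 and 4 of 10 with TMM scaling. The medians of the 10 were then 0.24 and 0.20, beside 0.26 and 0.30 over all genes. With TMM scaling the median difference of the 10 was 0.00 with IF, beside 0.02 over all genes tested, and -0.07 with DC, beside 0.04. At IF 22 h 2 of the 10 were lower (B2m and H2-D1) and none higher, where 3.44% of all genes were lower. All 10 differences were negative, with a median of -0.51 beside 0.01 over all genes, and all 3 IF 22 h libraries of each gene were below its unstimulated ones, a pattern shown by 14.7% of all genes. For H2-T23 that gap was 0.01 CPM wide.

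At DC 22 h H2-D1 alone was lower, beside 4.35% of all genes, and 9 of 10 differences were negative with a median of -0.24. Scaling by total count alone moved the median of all genes to 0.37 and that of the 10 to 0.09, with 9 of 10 then positive. So the direction at 8 h and at DC 22 h depended on the scaling. At IF 22 h all 10 stayed negative under it, with a median of -0.30, but neither B2m nor H2-D1 passed. With total counts as the scale Tap1 (0.65, adjusted p = 0.0238) passed at DC 22 h in place of H2-D1. Without the low-count filter H2-D1, H2-T23 and Tapbpl passed at IF 22 h and none of the 10 at DC 22 h. Relative to the median of all genes the 10 genes lay at -0.28 at DC 22 h and -0.52 at IF 22 h under both scalings.

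**Figure D3:**
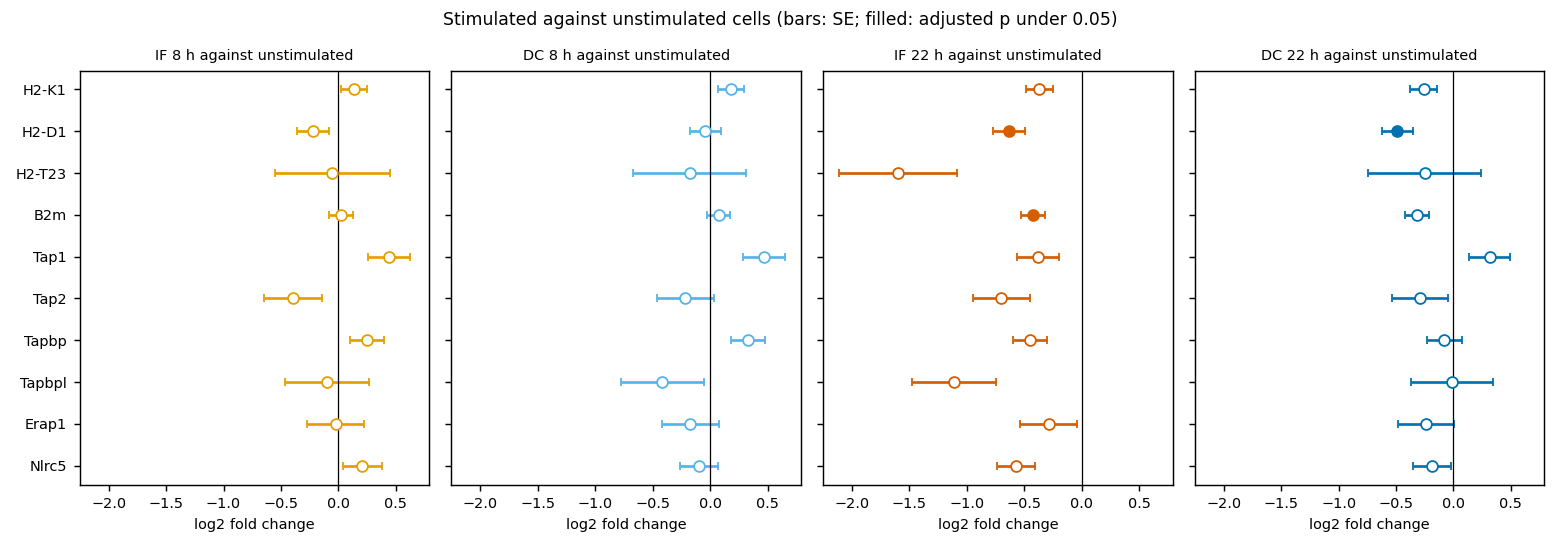
Log2 fold change of each gene (horizontal axes) in each stimulated group against unstimulated cells, with SE as bars and filled points past an adjusted p of 0.05. At IF 22 h all 10 points lie below 0, with B2m and H2-D1 filled, and at 8 h no point is filled.

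Between the times, IF cells showed 5 of the 10 lower at 22 h than at 8 h (B2m, H2-K1, Tap1, Tapbp and Nlrc5) and none higher, where 0.48% of all genes were lower. All 10 differences were negative, with a median of -0.60 beside -0.01. This count depended on single libraries and on the fit: it was 0 without IF 22 h replicate 2 or 3, IF 8 h replicate 1 or 3, DC 22 h replicate 1 or unstimulated replicate 1. It was 1 or 2 without unstimulated replicate 2 or 3, DC 8 h replicate 1 or 3 or IF 8 h replicate 2. With the replicate number as a block it was 3, since B2m and H2-K1 no longer passed (adjusted p = 0.0649 and 0.0600). With only the groups compared it was 0 (adjusted p 0.058 to 0.108 for the 5). Without the low-count filter B2m and H2-K1 did not pass (0.172 and 0.0937) and H2-T23 did. Leaving out IF 22 h replicate 1 gave 7, with H2-T23 and Tapbpl added. That fit called 541 of all genes in either direction, against 121 with all libraries. Without both IF 22 h libraries 2 and 3 no gene of all those tested passed, and the 5 differences were -0.53 to -1.02; of the other 5 genes, H2-T23 moved from -1.55 to -0.37, Tapbpl from -1.01 to -0.32, Tap2 from -0.30 to -0.58 and Erap1 from -0.27 to -0.57. In DC cells 0 of the 10 passed between the times in edgeR, where 0.48% of all genes passed in either direction. In that fit 4 of the 10 had an unadjusted p under 0.05, a cut with no share over all genes given. DESeq2 called B2m and H2-K1, where it called 210 of all genes against 52 in edgeR. The fit of the DC libraries alone, with pairs taken from these same data, called H2-K1 (adjusted p = 0.0331) and 166 of all genes. Without the pairs that fit called 0 of all genes. In the edgeR fit of all libraries 9 of 10 differences were negative with a median of -0.12.

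IF and DC differed in 0 of the 10 at 8 h, beside 0.665% of all genes, and none had an unadjusted p under 0.05. The 95% interval of the difference was -0.27 to 0.16 for B2m and -0.41 to 0.35 for Tap1. At 22 h again 0 of the 10 passed, beside 2.43% of all genes, with 5 at an unadjusted p under 0.05. DESeq2 called Tap1, where it called 563 of all genes against 263 in edgeR. All 10 differences were negative, with a median of -0.38 beside -0.02. For B2m the 22 h difference was -0.11 (95% interval -0.32 to 0.11), for H2-K1 -0.11 (-0.35 to 0.14) and for H2-D1 -0.14 (-0.43 to 0.15). Without the IF 22 h libraries 2 and 3 these were -0.20, -0.17 and -0.08. All 10 stayed negative there and none passed, with H2-T23 moving from -1.35 to -0.18, Tapbpl from -1.10 to -0.42, Tap2 from -0.41 to -0.69 and Erap1 from -0.05 to -0.36. Whether the IF-DC difference itself changed with time was tested by the interaction, which passed for 0 of the 10 and, in all genes, for 0%. That share depended on the setting. Without IF 22 h replicate 1 the interaction passed for 279 genes, H2-T23 and Tapbpl among them, without the low-count filter for 155 and with DESeq2 for 40. Unadjusted p was under 0.05 for Tap1, Tapbpl and Nlrc5, and DESeq2 called 0 of the 10. Their interaction values, -0.66, -1.42 and -0.69, were -0.86, -0.73 and -0.62 without the IF 22 h libraries 2 and 3.

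**Figure D4:**
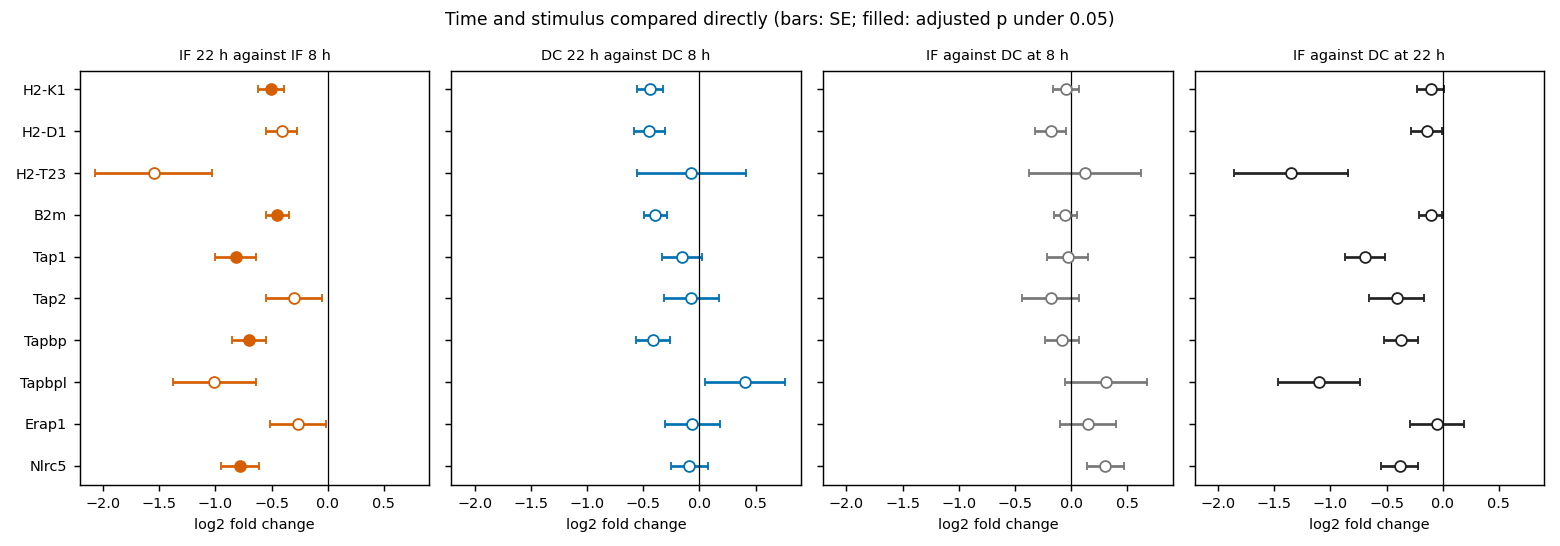
Log2 fold change of each gene (horizontal axes) between 22 h and 8 h for each stimulus and between IF and DC at each time, with SE as bars and filled points past an adjusted p of 0.05. B2m, H2-K1, Tap1, Tapbp and Nlrc5 are filled between IF 22 h and IF 8 h, and no point is filled in the other panels.

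Of 5 proteasome genes that supply class I peptides, 2 were lower in IF than in DC cells at 22 h. The immunoproteasome subunits Psmb8, Psmb9 and Psmb10 and the PA28 activator genes Psme1 and Psme2 make up this list. Psmb9 was lower in IF cells by -1.14 ± 0.21 (adjusted p = 0.00804) and Psme2 by -0.78 ± 0.19 (adjusted p = 0.0369), and for all 5 the IF libraries lay below the DC ones, as for 9.11% of all genes. Psmb9 measured 24.4, 25.8 and 24.3 CPM with IF and 53.95, 68.13 and 41.96 with DC at 22 h. Unstimulated cells measured 40.5 to 51.7. Against them Psmb9 fell by 0.84 ± 0.21 (adjusted p = 0.0277) and Psmb10 by 0.74 ± 0.18 (adjusted p = 0.0241) at IF 22 h. Both calls ended with total counts as the scale (-0.64 and -0.55, adjusted p = 0.0824 and 0.068). At DC 8 h Psme2 rose by 0.90 ± 0.19 (adjusted p = 0.00809). Without the IF 22 h libraries 2 and 3 the IF-DC values were -1.16 for Psmb9 and -0.88 for Psme2, with adjusted p of 0.369 and 0.525; against unstimulated cells they were -0.87 for Psmb9 and -1.12 for Psmb10 (adjusted p = 0.35 and 0.0561). Psmb9 and Tap1 are neighbours transcribed in opposite directions from a shared promoter region.

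**Figure D5:**
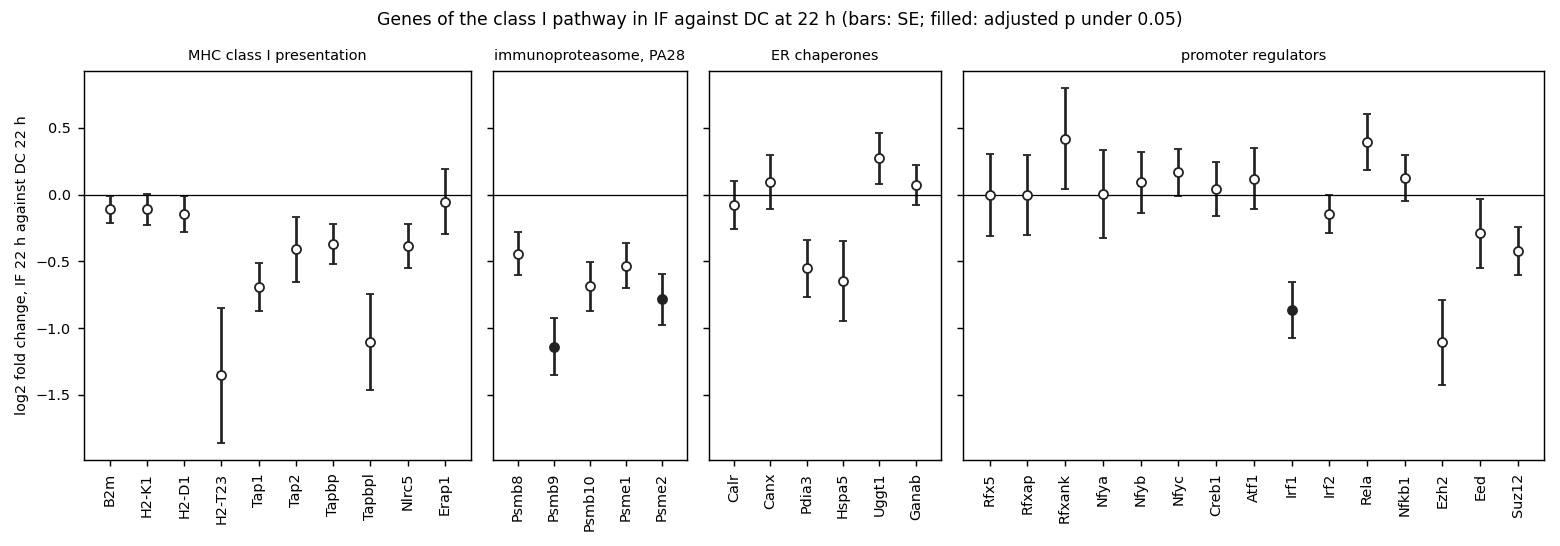
Log2 fold change in IF against DC at 22 h (vertical axis) for the 10 class I genes and 3 lists of the pathway, with SE as bars and filled points past an adjusted p of 0.05. Psmb9, Psme2 and Irf1 are filled, and the class I points run from -0.05 for Erap1 to -1.35 for H2-T23.

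Of 15 regulators that bind or silence class I promoters, Irf1, an interferon-induced activator of these genes, was lower in IF than in DC cells at 22 h. Its levels were 143 to 173 CPM with IF and 233 to 362 with DC, and 162 to 209 in unstimulated cells. The difference was -0.86 ± 0.21 (adjusted p = 0.0369), and -0.97 (adjusted p = 0.515) without the IF 22 h libraries 2 and 3. From IF 8 h to IF 22 h Psme2 of the PA28 genes fell by 0.98 ± 0.19 (adjusted p = 0.0193), and the value was -1.07 without both libraries (adjusted p = 0.522). At 8 h Irf2 and Nfkb1 were higher than in unstimulated cells with both stimuli, by 0.64 and 0.74 with IF and 0.68 and 0.87 with DC (adjusted p = 0.0149, 0.0166, 0.00876 and 0.00587). At DC 22 h Nfya, an NF-Y subunit, and the Polycomb genes Ezh2 and Suz12 were higher by 1.19, 1.24 and 0.66 (adjusted p = 0.0469, 0.0257 and 0.0331). Nfya and Suz12 did not pass in the fit without the IF 22 h libraries 2 and 3, with differences of 1.19 and 0.67. Those libraries are in neither group of this comparison and enter only what all groups share, the spread, the scaling and the filter. Rfx5, Rfxap and Rfxank, the RFX subunits, passed in no comparison.

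Among 9 interferon receptor and signalling genes, Stat2 and Irf9, which act downstream of type I interferon, were lower in IF than in DC cells at 22 h by -1.40 ± 0.32 and -0.77 ± 0.20 (adjusted p = 0.0282 and 0.0477); without the IF 22 h libraries 2 and 3 the values were -1.29 and -0.56, and neither passed. Irf9 was also lower at IF 22 h than in unstimulated cells, by -0.78 (adjusted p = 0.027); that call ended with total counts as the scale (-0.57, adjusted p = 0.0943) and without both libraries (-0.56, adjusted p = 0.538). Ifng did not pass in any comparison. Ifnar1 rose by 0.74 at IF 8 h (adjusted p = 0.036) and Jak2 by 0.91 at DC 8 h (adjusted p = 0.00342). Ciita, the class II counterpart of Nlrc5 and a gene of dendritic and B cells, had 0 to 5 counts per library at IF 22 h and 8 to 36 at DC 22 h (adjusted p = 0.0483 between them). Unstimulated cells had 4 to 19 (adjusted p = 0.0316 against IF 22 h). Neither call was kept without both libraries (adjusted p = 0.382 and 0.167), when the group is 1 library with 0 counts. None of 6 chaperone and quality control genes of the endoplasmic reticulum (Calr, Canx, Pdia3, Hspa5, Uggt1 and Ganab) passed in any comparison of 2 groups in edgeR. Of 17 other class I genes, 14 were in the tables and 10 passed the filter. H2-Q10 alone passed, at IF 8 h against unstimulated cells, on 0 to 1 counts per library against 12 to 27, but not without the IF 22 h libraries 2 and 3 (adjusted p = 0.054).

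The likeness of patterns over the 15 libraries was described by Pearson's r of log2 CPM, chosen from 10821 genes. Libraries of a group share their stimulus and time, so r reflects group differences as well as spread within groups. Closest to Tap1 were Gbp6 (r = 0.965), Psme2 (0.949) and Cxcl10 (0.937). B2m was most like Tmbim6 (0.883), Cd69 (0.875) and Ddx54 (0.875), and H2-K1 like Tuba1a (0.859), Vps37b (0.846) and Tmbim6 (0.837). For Nlrc5 they were H2afx (0.894), Dbnl (0.869) and Cpsf7 (0.851). Among the 10 genes B2m and H2-K1 were most alike (r = 0.895), followed by H2-T23 with Tapbpl (0.865), B2m with H2-D1 (0.858) and Tap1 with Tapbp (0.844).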

How the data were processed

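Bulk RNA from 15 sorted cell samples was prepared by an adapted CEL-seq protocol, per the labels' protocols: reverse transcription with barcoded primers, pooling, in vitro transcription and paired-end sequencing. The deposited tables hold whole-number read counts per gene without normalization, made by the authors. The submitters' processing notes name BWA and mm10; the counting program, strand and use of molecular identifiers were not given in the sources used here, and amplified reads need not be independent molecules. Protocols of this kind read transcript 3′ ends.

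The analysis used edgeR 4.0.16 under R 4.3.3, with filterByExpr (minimum count 10, minimum total 15), TMM scaling, 5 group means in a single quasi-likelihood fit (its older form) with a prior count of 0.125, two-sided tests and Benjamini-Hochberg adjustment over 10831 genes at 0.05. The method was tested on simulated data. Alternatives were DESeq2 1.42.0, other scalings, no filter, only the groups compared, replicate blocks and libraries left out. Sample titles number the replicates as Don1 to Don3, a term that is not explained, and do not say whether they are separate animals or cultures, so p-values measure the spread between these samples, which may be technical. Replicates differed by 9.5 to 98.1 times counting variation (chi-square per degree of freedom), so none was counted as a duplicate. Deviations of same-numbered DC 8 h and DC 22 h libraries correlated at 0.116, 0.399 and 0.238, so the numbers were taken to pair these groups in an alternative fit. This pairing was chosen from these data and not from the labels. Number 1 of DC 8 h and IF 22 h correlated at 0.115 and was not taken as a pair.

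The genes, lists and tests were chosen with earlier results of these data known. All 10 genes are named; of other lists, only genes past the threshold could be named (where over 3 passed, only the 3 with the smallest p), and the 3 genes most like B2m, H2-K1, Tap1 and Nlrc5. Zbtb46, Fscn1 and Ccr7, genes of these lists named as not past the threshold, and the promoter motifs were picked with values or sequences in view. A gene of the regulator list is not reported here.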

Additional observations from a re-analysis of the deposited data

Results flagged for a closer look

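Differences between the stimuli at 22 h, as log2 IF against DC, passed edgeR's quasi-likelihood test for Psmb9 (-1.138), Psme2 (-0.784), Irf1 (-0.8648), Stat2 (-1.396), Irf9 (-0.7704) and Ciita (-3.839, on 0 to 5 counts per library at IF 22 h). Tap1 (-0.693) is listed because all IF libraries lay below and all DC libraries above the unstimulated ones, although the direct test missed the threshold (adjusted p = 0.0549). Differences between the times in IF cells passed for B2m (-0.4478), H2-K1 (-0.5033), Tap1 (-0.8192), Tapbp (-0.6997), Nlrc5 (-0.7802) and Psme2 (-0.9799). None of these differences passed in the fit with IF 22 h replicate 1 as the single library of its group, where the dispersion came from the other groups.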

How the results depend on the processing

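Counts of the 10 genes past the threshold varied with the setting. With library size alone they were 3 at IF 8 h (H2-K1, Tap1 and Tapbp), 4 at DC 8 h (these and B2m), 0 at IF 22 h and 1 (Tap1) between IF and DC at 22 h; B2m at DC 22 h changed sign to 0.0141 (adjusted p = 0.929). Here the scaling moved the median of all genes by over 0.2 against unstimulated cells. It called 849 of all genes higher at IF 8 h and 859 at DC 8 h, against 329 and 298 in the main fit. DESeq2 called 7 at IF 22 h, 2 at DC 22 h, 1 between IF and DC at 22 h and 2 between DC times. Over all genes it called 1066, 1267, 563 and 210 there, against 658, 840, 263 and 52 in the main fit. The newer edgeR quasi-likelihood method, added after seeing the data, called 4 at IF 22 h, 1 between IF and DC at 22 h and 3 between IF times. Over all genes this method called 808, 503 and 130 there, against 658, 263 and 121 in the main fit. Without the low-count filter the call of B2m at IF 22 h and those of B2m and H2-K1 between IF times were lost, 0 passed at DC 22 h and 3 between IF and DC at 22 h, and DESeq2 size factors gave 1 there. Between IF and DC at 22 h these 2 settings called 706 and 264 of all genes. With only the groups compared, 0 passed at DC 22 h and 0 between IF times. Without both IF 22 h libraries low in mitochondrial ribosomal RNA, 0 passed at IF 22 h, 0 at DC 22 h, 0 between IF times and 2 for any difference. The cause of these shifts was not tested.

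With the replicate number as a block, 3 passed between IF times (Tap1, Tapbp and Nlrc5), and fitted on the DC libraries alone, an alternative added after seeing the data, 1 between DC times (H2-K1). That last fit called 166 of all genes, against 0 on the same libraries without the block. The block changed no other count by over 1.5 times. Over all groups 4 of 30 same-number pairs correlated over 0.1. These were the DC 8 h and DC 22 h pairs (0.116, 0.399 and 0.238) and number 1 of DC 8 h and IF 22 h (0.115). Of 15 libraries, 9 correlated best with their own number. Whether a number means the same source in different groups is not given by the labels. Leaving out each of the 15 libraries in turn gave 0 to 4 at IF 22 h, 0 to 2 at DC 22 h, 0 to 2 between IF and DC at 22 h, 0 to 7 between IF times, 0 to 2 for the interaction and 3 to 7 for any difference; the remaining comparisons stayed at 0. At IF 22 h the count was 0 without IF 22 h replicate 3 or unstimulated replicate 2 or 3. The highest counts came without IF 22 h replicate 1. Over all genes that fit called 947 at IF 22 h and 541 between IF times, against 658 and 121 with all libraries. Over 31 pairs of gene and comparison that passed in at least 1 setting, 580 values kept their direction and side of the threshold, 92 lost the call, 42 gained one and 1 changed sign.

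Counts limited H2-T23, Tap2 and Tapbpl most, with as few as 16, 48 and 42 in a library, against at least 13719 for B2m. The 16 of H2-T23 are from IF 22 h replicate 2, whose total of 8805220 was above those of all unstimulated libraries.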
